A study of Mus musculus with 8 samples.

Results

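The genes described here are 8 transcription factors of the photoreceptor lineage, Otx2, Crx, Prdm1, Rorb, Nrl, Nr2e3, Rxrg and Thrb. They were chosen by symbol among the 16096 genes in the authors' table, with earlier results of these data known. All 8 were found there and passed the filter on low counts. The tissue was peripheral retina, dissected at embryonic day 16.5 on a C57BL/6 background. The conditional mutants were Pax6alpha-Cre:Ezh2fl/null (Ezh2fl/null below, 4 libraries), with a floxed and a null allele of Ezh2. The controls were Pax6alpha-Cre:Ezh2fl/+ (Ezh2fl/+ below, 4 libraries), with a floxed and a wild-type allele. Ezh2 encodes the methyltransferase of Polycomb repressive complex 2, which marks histone H3 for repression. Both groups carry the Pax6alpha-Cre driver, so the controls are themselves heterozygous for Ezh2 where Cre is active. The driver acts in the peripheral retina and not in every cell, and cells without Cre activity keep 1 intact allele in the Ezh2fl/null libraries. The comparison asks which transcripts of the developing retina differ between these genotypes.

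Photoreceptors arise from dividing retinal progenitors through a postmitotic precursor that switches on the homeodomain factor Otx2. Otx2 turns on its relative Crx, and the repressor Prdm1 keeps the precursor from becoming a bipolar cell. A precursor that makes the leucine zipper factor Nrl becomes a rod, in which the nuclear receptor Nr2e3 silences cone genes. A precursor without Nrl becomes a cone, in which the nuclear receptors Rxrg and Thrb control which opsin is made. Rorb, another nuclear receptor, acts upstream of Nrl. In the mouse most cones are born before birth and most rods around and after it.

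Libraries held 13994825 to 18391647 counts each. The whole-gene count of Ezh2 was not lower in the Ezh2fl/null libraries, at 276, 251, 255 and 220 CPM (counts scaled to the normalised library size), against 235, 230, 197 and 207 CPM in the Ezh2fl/+ libraries. The Ezh2 log2 fold change was 0.21 (SE 0.07, edgeR adjusted p = 0.0701). It passed as higher in DESeq2 (adjusted p = 0.0383) and without Ezh2fl/null replicate 4 (edgeR adjusted p = 0.0129), where the 17 alternatives gave adjusted p from 0.0129 to 0.268. A count over the whole gene does not check the loss of single exons. Xist and Y-linked counts showed that Ezh2fl/null replicates 2 and 3 were female and that the other 6 libraries were male. Lens genes summed to 11.4 CPM in Ezh2fl/null replicate 2 and to 14.4 CPM in Ezh2fl/+ replicate 1, and to at most 4.70 CPM elsewhere. A list of 6 defining retinal genes, Pax6, Rax and Lhx2 among them, summed to 1550 to 1720 CPM in the Ezh2fl/null libraries and to 1720 to 1860 CPM in the Ezh2fl/+ libraries.

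In the Ezh2fl/null libraries 5 of the 8 factors were called higher, none lower and 3 neither, at a Benjamini-Hochberg adjusted p under 0.05 in the quasi-likelihood test of edgeR. Across all 15014 genes tested, 8.35% were called higher and 3.46% lower. The contrast with these shares is not free of the choice of the 8 factors, and was not tested. The same holds for the gene lists below. The rod factors Nr2e3 and Nrl rose most, by 9.56-fold and 1.96-fold in the edgeR fit. The precursor factors Otx2 and Crx and the cone factor Rxrg rose by 19.7%, 23.3% and 26.5%. Prdm1, Rorb and Thrb were within 10% of the Ezh2fl/+ level. At an unadjusted p under 0.05, Prdm1 was higher and Rorb and Thrb were lower, and DESeq2 also called 0 of the 8 lower after adjustment. The median log2 fold change of the 8 factors was 0.28, where that of all genes tested was -0.01. In whole tissue, more cells of a type and more RNA per cell cannot be told apart. The CPM ranges of the 2 groups did not overlap for 6 of the 8 factors, against 16.3% of all genes tested. Nr2e3 is in each of these counts and in the median, although it passed the filter on low counts through its Ezh2fl/null libraries.

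**Figure D1:**
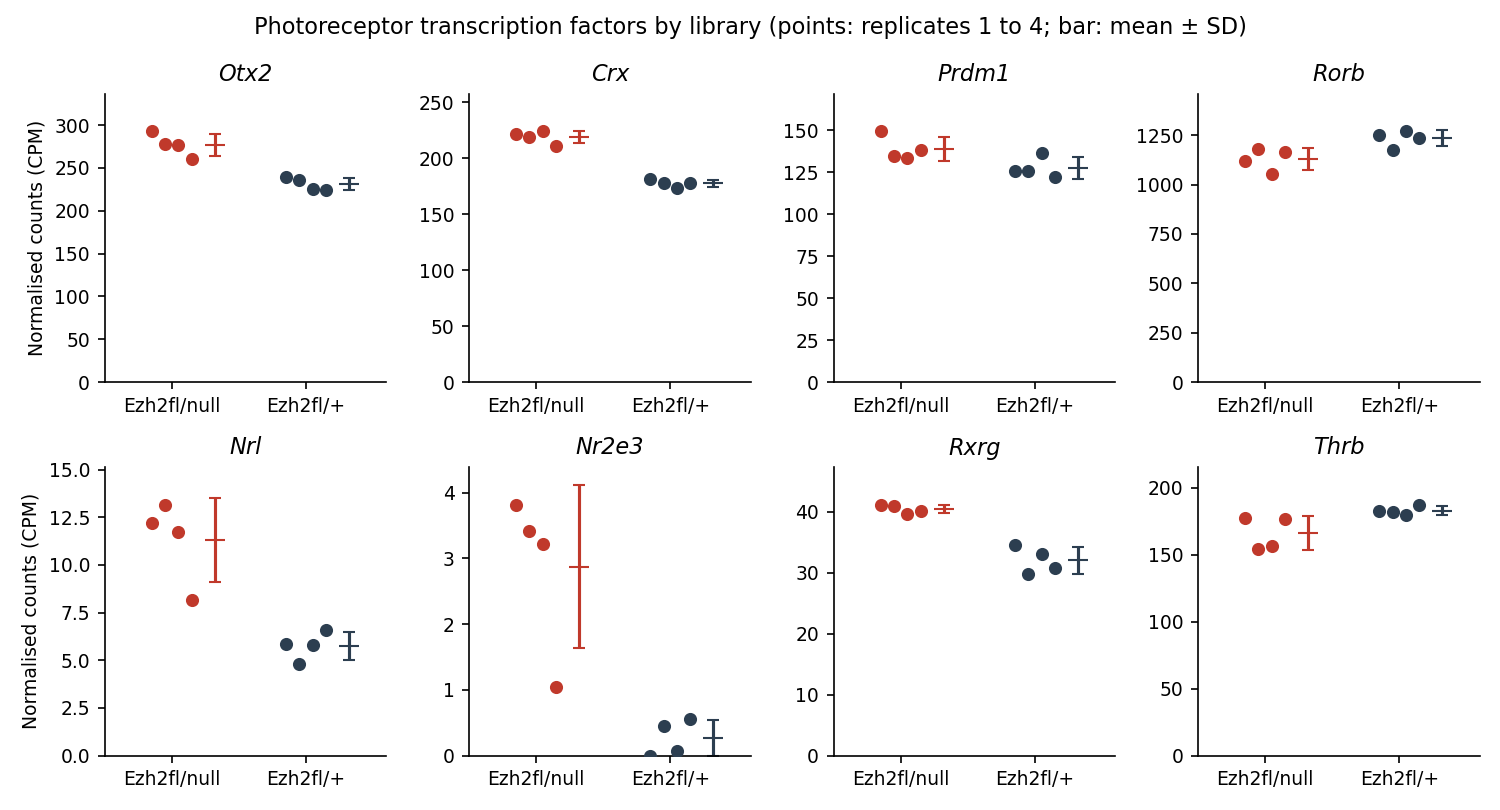
Normalised counts (CPM, linear axes from 0) of each factor in every library, with Ezh2fl/null on the left and Ezh2fl/+ on the right of each panel; points are replicates 1 to 4 from left to right and the bar is the mean ± SD. The ranges are apart for Otx2, Crx, Nrl, Nr2e3, Rxrg and Thrb and overlap for Prdm1 and Rorb.

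Otx2 (ENSMUSG00000021848, mm10 chromosome 14, 48657677 to 48673819, minus strand) specifies the photoreceptor and bipolar precursor. It stood at 293, 278, 276 and 260.2 CPM in Ezh2fl/null replicates 1 to 4, against 239, 236, 226 and 224 CPM in Ezh2fl/+ replicates 1 to 4. Every Ezh2fl/null library was above every Ezh2fl/+ library, and the lowest of them was replicate 4. The means were 277 ± 13.4 CPM in Ezh2fl/null and 231 ± 7.44 CPM in Ezh2fl/+ (SD, n = 4 each), a log2 fold change of 0.26 (SE 0.05, 95% limits 0.16 to 0.36, edgeR adjusted p = 0.00166). Otx2 is also made in the pigment epithelium that touches the retina. The 10 pigment epithelium genes of a 13-gene list that were counted summed to 13.4 to 26.5 CPM in the Ezh2fl/null libraries and to 12.5 to 40.5 CPM in the Ezh2fl/+ libraries. None of the 7 that passed the filter was called, and the melanocyte and pigment epithelium factor Mitf was at 2.57 CPM in Ezh2fl/null and 2.45 CPM in Ezh2fl/+. Rpe65, Mlana and Slc45a2 of that list are not analysed here. Otx2os1 lies on the opposite strand over Otx2 exons and is not analysed here. The strand setting of the count is not stated in the sources used, and reads from Otx2os1 may be in the Otx2 count. Exons of Gm49154 overlap Otx2 on the same strand, so reads there could belong to either gene.

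Crx (ENSMUSG00000041578, chromosome 7, 15865947 to 15879968, minus strand) drives photoreceptor genes of both rods and cones. It was at 221, 219.5, 224 and 211 CPM in the Ezh2fl/null libraries, against 181, 178, 173 and 178 CPM in the Ezh2fl/+ libraries. Every Ezh2fl/null library was above every Ezh2fl/+ library, with an SD of 2.58% of the mean in Ezh2fl/null and 1.90% in Ezh2fl/+. The means were 219 ± 5.65 CPM in Ezh2fl/null and 178 ± 3.37 CPM in Ezh2fl/+ (SD, n = 4 each), with a log2 fold change of 0.30 (SE 0.04, 95% limits 0.22 to 0.39, edgeR adjusted p = 0.000116). Crx had the smallest p of the 8 factors and ranked 257 by p among the 15014 genes. Its proportion to Otx2 was also compared. Crx counts were 0.756, 0.79, 0.812 and 0.811 of Otx2 counts in the Ezh2fl/null libraries and 0.758, 0.756, 0.767 and 0.795 of them in the Ezh2fl/+ libraries. The difference in the log2 ratio was 0.04, with overlapping groups (exact two-sided permutation test over 70 assignments, p = 0.257, adjusted over 6 ratios p = 0.308).

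The stretches upstream of the start sites of Otx2 and Crx are shown because both factors bind the homeodomain motif TAATCC, and both genes rose. Each is the 250 bases before a RefSeq start site (build GRCm38.p6, the mm10 assembly), written 5′ to 3′ on the strand of the gene, with TAATCC on either strand (GGATTA on the strand shown) in capitals. The Otx2 window is chr14:48665110-48665359 on the minus strand, 1 of 4 RefSeq start sites of this gene, and the Crx window is chr7:15879956-15880205 on the minus strand.
Otx2: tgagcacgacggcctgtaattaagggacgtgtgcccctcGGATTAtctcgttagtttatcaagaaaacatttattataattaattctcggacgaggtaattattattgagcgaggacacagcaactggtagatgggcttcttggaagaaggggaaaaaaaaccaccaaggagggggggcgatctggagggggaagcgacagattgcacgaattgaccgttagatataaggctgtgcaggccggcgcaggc
Crx: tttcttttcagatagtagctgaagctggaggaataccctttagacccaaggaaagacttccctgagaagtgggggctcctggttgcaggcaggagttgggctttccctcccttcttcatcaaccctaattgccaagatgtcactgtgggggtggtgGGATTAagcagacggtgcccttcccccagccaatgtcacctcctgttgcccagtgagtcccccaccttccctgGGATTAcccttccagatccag
The Crx window held the motif at -94 and -21 from the start site, and this Otx2 window held it at -211. Of the 14 windows of the 8 factors, 3 held TAATCC, namely these and 1 of the windows of Thrb, where 6.25% of 32851 promoter windows held it. A motif match is a description of the letters and not a bound site.

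Prdm1 (ENSMUSG00000038151, chromosome 10, 44437177 to 44528501, minus strand), also known as Blimp1, stabilises the photoreceptor choice. It was at 149.5, 135, 134 and 138 CPM in the Ezh2fl/null libraries, against 126, 126, 137 and 122 CPM in the Ezh2fl/+ libraries. Ezh2fl/+ replicate 3 lay above Ezh2fl/null replicates 2 and 3, so the groups overlapped. On the log2 scale it differed by 0.12 (SE 0.05, 95% limits 0.02 to 0.23, edgeR adjusted p = 0.128) and did not pass. Set against Otx2, Prdm1 had 0.51, 0.485, 0.484 and 0.531 of its counts in the Ezh2fl/null libraries and 0.525, 0.535, 0.604 and 0.545 of them in the Ezh2fl/+ libraries. The log2 ratio differed by -0.13 (exact two-sided permutation test, p = 0.0571, adjusted p = 0.0857), which did not pass either.

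Rorb (ENSMUSG00000036192, chromosome 19, 18930605 to 19111196, minus strand) is needed for Nrl to come on and is also made in progenitors and in horizontal and amacrine cells. It had the most counts of the 8 factors, with 1121, 1179.5, 1054 and 1164 CPM in the Ezh2fl/null libraries, against 1252, 1177, 1270.0 and 1236 CPM in the Ezh2fl/+ libraries. Ezh2fl/null replicate 2 lay above Ezh2fl/+ replicate 2, and the groups otherwise stood apart. On the log2 scale it differed by -0.13 (SE 0.06, 95% limits -0.25 to -0.0048, edgeR adjusted p = 0.189).

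Nrl (ENSMUSG00000040632, chromosome 14, 55518978 to 55524981, minus strand) commits a precursor to the rod fate. It had 227, 189, 179 and 132 counts in the Ezh2fl/null libraries, against 78, 73, 83 and 118 counts in the Ezh2fl/+ libraries. On the normalised scale these were 12.2, 13.2, 11.7 and 8.16 CPM in Ezh2fl/null, against 5.84, 4.78, 5.82 and 6.57 CPM in Ezh2fl/+. The groups did not overlap, but replicate 4 of Ezh2fl/null lay much nearer to the Ezh2fl/+ libraries than the other 3. The means were 11.3 ± 2.19 CPM in Ezh2fl/null and 5.75 ± 0.737 CPM in Ezh2fl/+ (SD, n = 4 each), with a log2 fold change of 0.97 (SE 0.14, 95% limits 0.66 to 1.28, edgeR adjusted p = 0.000359).

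The ratio of Nrl to Crx was higher in every Ezh2fl/null library, but it did not pass after adjustment over the 6 ratios. A ratio within a library is free of how libraries are scaled. Nrl counts were 0.0552, 0.0601, 0.0525 and 0.0388 of Crx counts in the Ezh2fl/null libraries and 0.0324, 0.027, 0.0338 and 0.0371 of them in the Ezh2fl/+ libraries. The groups did not overlap, and the log2 ratio differed by 0.66 (exact two-sided permutation test, p = 0.0286, the smallest that 4 against 4 libraries can give, adjusted over 6 ratios p = 0.0857). Against the cone factor Rxrg, the Nrl ratio differed by 0.62 with overlapping groups, since Ezh2fl/null replicate 4 was at -2.29 and Ezh2fl/+ replicate 4 at -2.22 on the log2 scale (p = 0.0571 by the same exact permutation test, adjusted p = 0.0857).

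Nr2e3 (ENSMUSG00000032292, chromosome 9, 59942771 to 59960659, minus strand), which Nrl turns on in rods, was close to absent from the Ezh2fl/+ libraries. It had 71, 49, 49 and 17 counts in Ezh2fl/null replicates 1 to 4, against 0, 7, 1 and 10 counts in Ezh2fl/+ replicates 1 to 4. The count of 0 allows up to 3 counts, or 0.225 CPM (counting error only). Ezh2fl/null replicate 4 was again the lowest of its group, and it was still above every Ezh2fl/+ library. The means were 2.87 ± 1.24 CPM in Ezh2fl/null and 0.271 ± 0.277 CPM in Ezh2fl/+ (SD, n = 4 each). The fitted log2 difference was 3.26 (SE 0.52, 95% limits 2.14 to 4.37, edgeR adjusted p = 0.000623). It was 3.89 without Ezh2fl/+ replicate 4 and 2.82 without the libraries with lens counts, and it passed in both. With so few Ezh2fl/+ counts, Nr2e3 passed the filter on low counts through its Ezh2fl/null libraries, so its call was in part fixed by the filter. In the authors' deposited table the log2 ratio is 1.01 for Nr2e3 and 0.90 for Nrl. For Nr2e3 this is far below the 3.26 of edgeR and the 3.36 of DESeq2 found here. The method behind the deposited ratio is not stated in the sources used. The size of the Nr2e3 rise, with 18 counts in Ezh2fl/+, depends on how it is estimated. Ezh2fl/+ replicates 2 and 4, with 7 and 10 of the group's 18 counts, had 8.72% and 8.19% of counts on mitochondrial rRNA, against 13.7% and 13.5% in replicates 1 and 3. In Ezh2fl/null the order was not the same, since replicate 4, with 17 counts, had the lowest share at 9.84% and replicate 2, with 49 counts, the highest at 14%. The part of these shares in the Nr2e3 counts was not tested. Exons of Gm15507 overlap Nr2e3 on the same strand, so reads there could belong to either gene.

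The windows before the start sites of both rod genes are shown to set beside those of Otx2 and Crx. The Nrl window is chr14:55524253-55524502 and the Nr2e3 window is chr9:59950080-59950329, both on the minus strand of GRCm38.p6.
Nrl: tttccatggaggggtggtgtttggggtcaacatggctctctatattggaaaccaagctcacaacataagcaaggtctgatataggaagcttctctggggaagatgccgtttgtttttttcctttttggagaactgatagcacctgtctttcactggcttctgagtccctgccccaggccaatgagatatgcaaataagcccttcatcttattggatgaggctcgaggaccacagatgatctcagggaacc
Nr2e3: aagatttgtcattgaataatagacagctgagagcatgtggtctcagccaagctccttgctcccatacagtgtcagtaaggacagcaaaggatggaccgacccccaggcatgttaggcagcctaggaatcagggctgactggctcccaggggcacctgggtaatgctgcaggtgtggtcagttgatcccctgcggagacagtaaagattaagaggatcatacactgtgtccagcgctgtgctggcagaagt
Neither held TAATCC on either strand. Both also lacked TGCTGA, part of the site that Nrl binds and present in 16.1% of all windows. The same was true of AGGTCA, the core of nuclear receptor sites, which 14.0% of all windows held. No letter is therefore in capitals. Absence from these 250 bases says nothing about binding elsewhere.

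**Figure D2:**
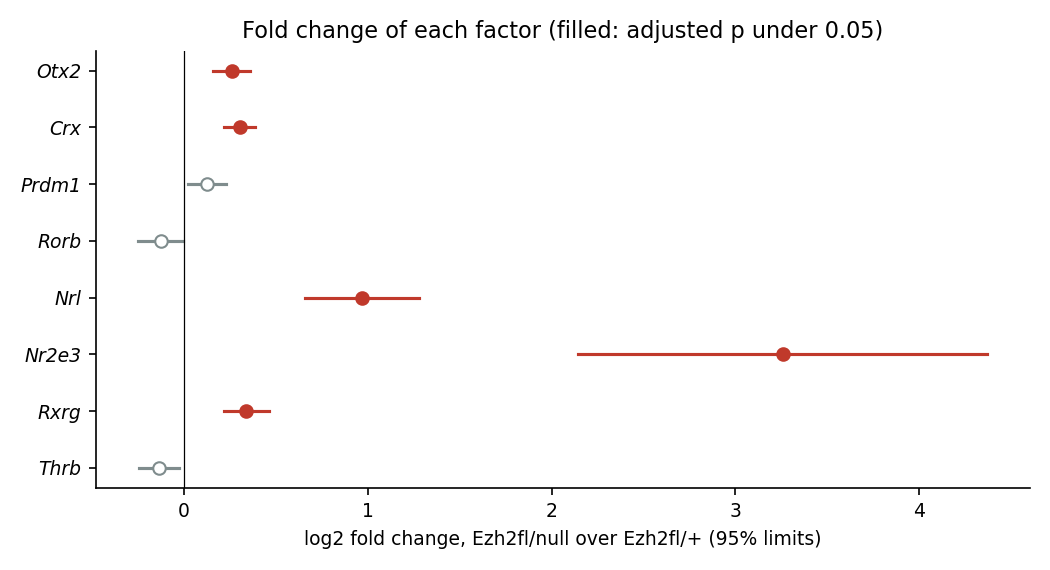
The log2 fold change of each factor, Ezh2fl/null over Ezh2fl/+, with 95% limits from the edgeR fit; filled points passed at an adjusted p under 0.05. Nr2e3 at 3.26 and Nrl at 0.97 lie to the right of the other 6, which run from -0.14 to 0.34.

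Rxrg (ENSMUSG00000015843, chromosome 1, 167598384 to 167639623, plus strand), a retinoid X receptor that marks early cones, was at 41.2, 40.9, 39.6 and 40.1 CPM in the Ezh2fl/null libraries, against 34.5, 29.7, 33.03 and 30.8 CPM in the Ezh2fl/+ libraries. It was the least variable of the 8 in Ezh2fl/null, where the SD was 1.78% of the mean, and the groups did not overlap. The means were 40.5 ± 0.720 CPM in Ezh2fl/null and 32.02 ± 2.16 CPM in Ezh2fl/+ (SD, n = 4 each), with a log2 fold change of 0.34 (SE 0.06, 95% limits 0.22 to 0.46, edgeR adjusted p = 0.00109). The log2 ratio of Rxrg to Crx was -2.44 ± 0.0448 in Ezh2fl/null and -2.47 ± 0.0974 in Ezh2fl/+ (SD, n = 4 each), a difference of 0.04 (exact two-sided permutation test, p = 0.600, adjusted p = 0.600).

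Thrb (ENSMUSG00000021779, chromosome 14, 17660261 to 18038090, plus strand), the thyroid hormone receptor that switches on the medium-wavelength opsin of cones, was not called. It was at 177, 154, 156 and 176 CPM in the Ezh2fl/null libraries, against 182, 182, 179.6 and 187 CPM in the Ezh2fl/+ libraries. Every Ezh2fl/null library was below every Ezh2fl/+ library, 2 of them by little. On the log2 scale it differed by -0.14 (SE 0.05, 95% limits -0.25 to -0.03, edgeR adjusted p = 0.101) and did not pass. The 2 lowest libraries were the female ones, and with the male libraries alone the log2 fold change was -0.05. Without Ezh2fl/null replicate 4 it passed at -0.17 (edgeR adjusted p = 0.0459; the 17 alternatives gave 0.0459 to 0.707). The ratio of the 2 cone receptors was compared next. Thrb had 4.30, 3.77, 3.94 and 4.40 times the counts of Rxrg in the Ezh2fl/null libraries and 5.27, 6.12, 5.43 and 6.07 times in the Ezh2fl/+ libraries. These groups did not overlap, and the log2 ratio differed by -0.48 (exact two-sided permutation test, p = 0.0286, the smallest possible, adjusted p = 0.0857). With the male libraries alone it differed by -0.39.

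A count over the whole gene sums the products of several start sites. RefSeq windows of Thrb end at start sites on either side of a long intron, chr14:17660710-17660959 and chr14:17981394-17981643, and the cone isoform is known to start from an internal site. The counts cannot tell these transcripts apart, and the same holds for the 2 start sites of Rorb and of Rxrg and the 4 of Otx2.

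**Figure D3:**
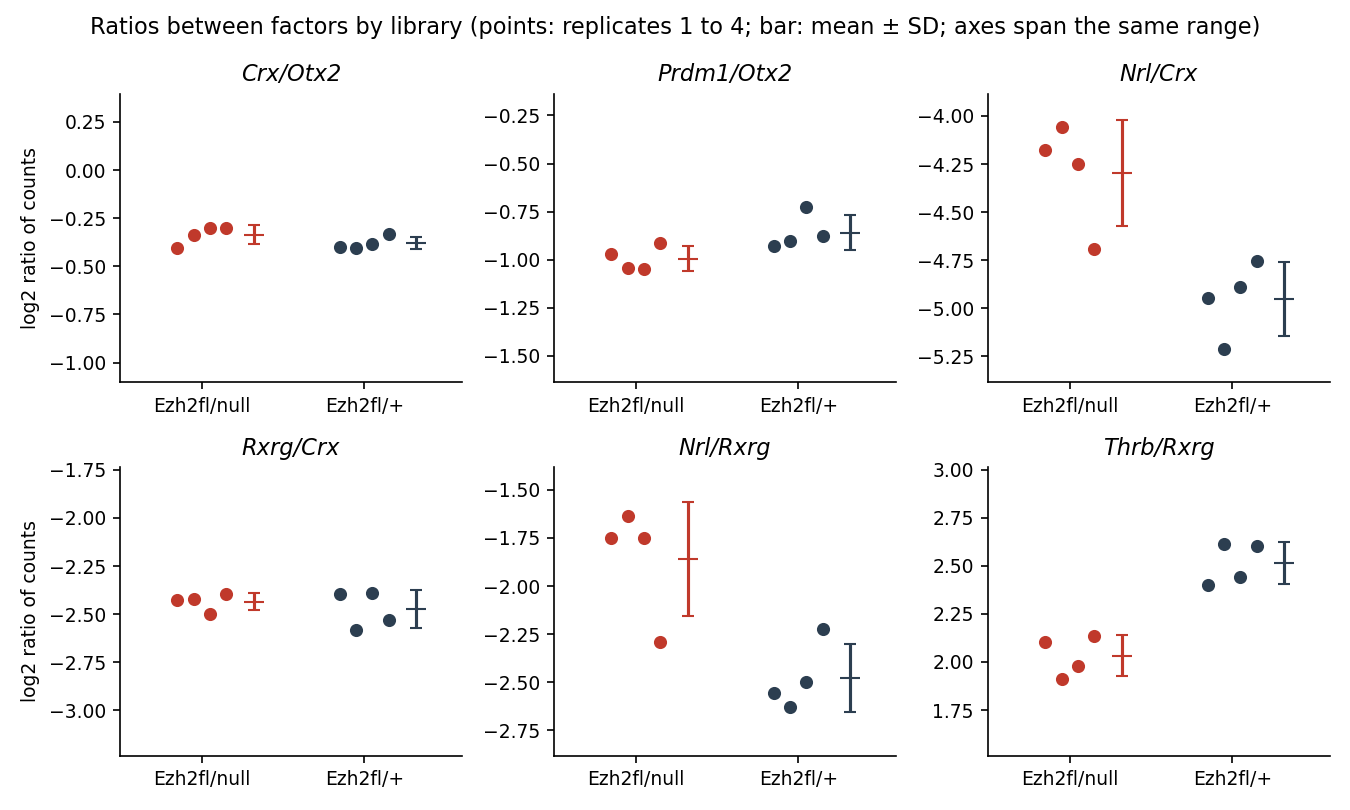
The log2 ratio of the counts of 2 factors in each library for the 6 pairs compared, with Ezh2fl/null on the left; points are replicates 1 to 4, bars the mean ± SD, and the axes of all panels span the same range. Nrl/Crx and Thrb/Rxrg are apart between the groups, whereas Crx/Otx2, Rxrg/Crx, Prdm1/Otx2 and Nrl/Rxrg overlap.

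Levels of different genes can be compared only per length, for which the authors' FPKM (fragments scaled to gene length and library size) were used. In Ezh2fl/null the means were 103 ± 4.75 for Rorb, 82.0 ± 3.79 for Otx2, 69.8 ± 2.04 for Crx, 25.5 ± 2.37 for Thrb, 25.5 ± 1.6 for Prdm1, 17.7 ± 0.375 for Rxrg, 4.54 ± 0.801 for Nrl and 0.855 ± 0.365 FPKM for Nr2e3 (SD, n = 4). In Ezh2fl/+ they were 110.3 ± 3.47 for Rorb, 67.5 ± 3.13 for Otx2, 55.8 ± 2.78 for Crx, 27.7 ± 1.62 for Thrb, 23.0 ± 0.842 for Prdm1, 13.8 ± 0.446 for Rxrg, 2.28 ± 0.317 for Nrl and 0.0825 ± 0.0852 FPKM for Nr2e3 (SD, n = 4). Neighbours in this order had ranges that did not overlap within a group, except Thrb and Prdm1 in Ezh2fl/null, where Thrb was the higher in 1 of 4 libraries. The order was the same in both groups by their means. The gap between Rorb and Otx2 was 1.25-fold in Ezh2fl/null and 1.64-fold in Ezh2fl/+, and that between Nrl and Nr2e3 was 5.31-fold in Ezh2fl/null and 27.6-fold in Ezh2fl/+. The gene lengths behind these FPKM differ for some genes from the GENCODE M21 exon union, with 2506 against 5689 bases for Nrl, 3399 against 4221 bases for Otx2 and 6559 against 7403 bases for Thrb. Gaps that involve these genes depend on the length used. Otx2 was above Crx by only 1.17-fold in Ezh2fl/null and 1.21-fold in Ezh2fl/+, less than its lengths differ. The order of Otx2 and Crx, and that of Thrb and Prdm1 in Ezh2fl/null, is therefore not settled. For Thrb the FPKM ranges of the groups overlapped, although the CPM ranges did not.

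**Figure D4:**
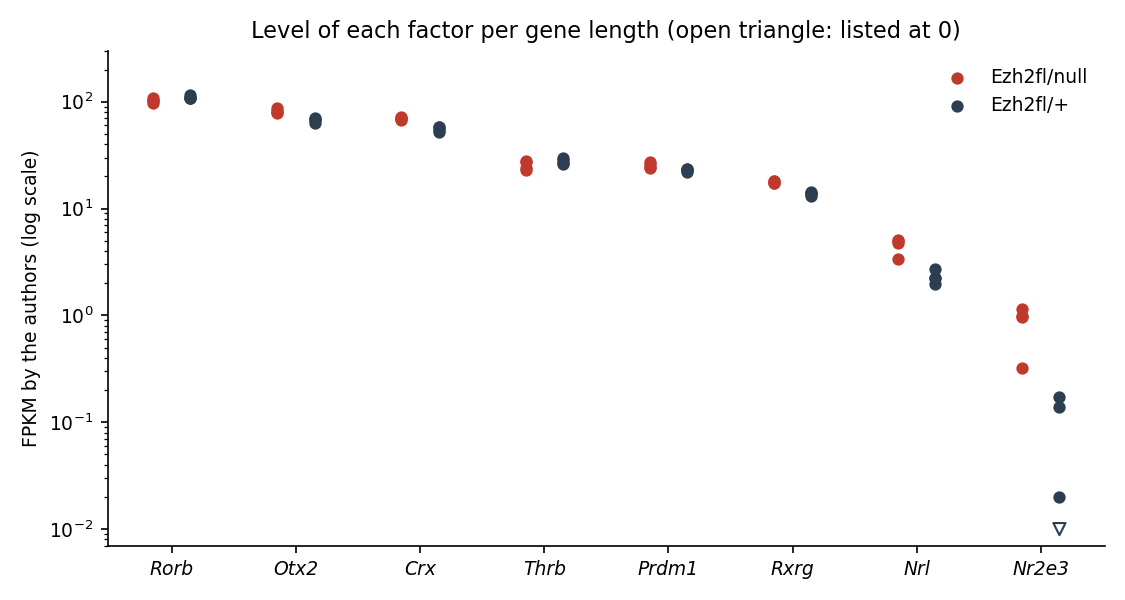
The authors' FPKM of each factor in every library on a log axis, in the order of the Ezh2fl/+ means, with Ezh2fl/null in red on the left of each pair and Ezh2fl/+ in dark blue on the right; the open triangle marks Nr2e3 in Ezh2fl/+ replicate 1, listed at 0. The factors run from Rorb, at a mean of 103 FPKM in Ezh2fl/null and 110.3 in Ezh2fl/+, to Nr2e3, at 0.855 FPKM in Ezh2fl/null and 0.0825 in Ezh2fl/+, and the groups differ most at the low end.

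Among the Ezh2fl/null libraries, replicate 4 was the lowest for 4 of the 5 factors that rose, namely Otx2, Crx, Nrl and Nr2e3, and replicate 3 was the lowest for Rxrg. Replicate 4 was also the lowest for 11 of the 13 photoreceptor effector genes called higher. The share over all genes called higher was not counted, so whether this is particular to photoreceptor genes was not tested. Replicate 4 is 1 of the 2 male Ezh2fl/null libraries, and it also had the fewest erythroid counts, at 94.8 CPM, with the other libraries between 155 and 1330 CPM. All 5 calls held without it. After each group's mean was taken out, Otx2 and Crx deviated together over the 8 libraries (r = 0.735), Nrl and Crx less so (r = 0.571) and Nrl and Nr2e3 weakly (r = 0.272). Other pairs deviated in opposite directions. The value farthest from 0 among all pairs was that of Nr2e3 and Rxrg (r = -0.812), and Crx and Rorb were at r = -0.563. These points share library and depth, and the values are a description.

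The genes whose log2 CPM over the 8 libraries was most like that of each factor were looked up among the 14298 genes averaging 1 CPM or more. They were Zcchc12 and Acsl1 for Otx2 (Pearson r = 0.986 and 0.984), Nefh and Abcc8 for Crx (0.994 and 0.993), and Abcb4 and Jak1 for Prdm1 (0.990 and 0.946). They were Adam22 and Gm13529 for Rorb (0.990 and 0.964), Lgalsl and Slc1a7 for Nrl (0.988 and 0.988), and Tspan11 and Acot1 for Nr2e3 (0.981 and 0.972). For Rxrg they were Kcna6 and Hoxb2 (0.993 and 0.992), and for Thrb Daam1 was among the nearest 2 (0.973). For the 5 factors that rose, each such gene was itself called higher, which the way these genes were picked made likely in advance. Hoxb2, at means of 7.08 CPM in Ezh2fl/null and 0.0912 CPM in Ezh2fl/+, passed the filter on low counts through its Ezh2fl/null libraries. The likeness is over 8 libraries only and rests in large part on the difference between 2 groups.

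Effector genes of mature photoreceptors were looked at next. Of 8 cone effector genes tested, 5 were higher and 0 lower, with a median log2 fold change of 0.29. The cone opsin gene Opn1sw was at 12.1, 11.1, 9.31 and 5.81 CPM in the Ezh2fl/null libraries, against 6.59, 3.47, 5.68 and 4.12 CPM in the Ezh2fl/+ libraries. Its groups overlapped at Ezh2fl/null replicate 4, and it rose by log2 0.97 (edgeR adjusted p = 0.00848), a call lost with the male libraries alone (0.88, edgeR adjusted p = 0.0688). The cone transducin genes Gnb3, Gnat2 and Gngt2 rose by log2 0.46, 0.47 and 0.34. The call of Gngt2, whose groups overlapped, was lost in 6 of 17 alternatives (edgeR adjusted p up to 0.175), and that of Gnat2 in 1, without the libraries with lens counts (edgeR adjusted p = 0.0507). The fifth call, named after its values were seen, was Ccdc136 at 0.24. The 3 cone genes not called, also named after their values were seen, were Pde6c, Cnga3 and Cngb3. Pde6c was lower in every Ezh2fl/null library than in any Ezh2fl/+ library. Its means were 10.8 CPM in Ezh2fl/null and 12.6 CPM in Ezh2fl/+ (log2 -0.23, edgeR adjusted p = 0.101). Cnga3 was at log2 0.16 and Cngb3 at 0.0064. Of 13 effector genes of both photoreceptor types, 7 were higher and 0 lower, with a median of 0.44. The outer segment gene Prph2 rose by log2 1.03, to 3.38 ± 0.797 CPM in Ezh2fl/null, against 1.66 ± 0.412 CPM in Ezh2fl/+ (SD, n = 4 each). The chaperone gene Aipl1 rose by 0.86, the axoneme gene Rp1 by 0.85 and the trafficking gene Tulp1 by 0.55. The Rp1 log2 fold change, at 0.66, did not pass with sex as a covariate or with the male libraries alone (edgeR adjusted p = 0.0536 and 0.0530). With the male libraries alone, 2 of the cone and 4 of the shared effector genes were called, and without the libraries with lens counts 2 of the cone genes were.

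Few rod effector genes could be tested. Of 12 listed, 6 are not analysed here, Gnat1 and Gngt1 were too low to test, and 4 were tested. The phosphodiesterase subunit gene Pde6g was the 1 called, at 1.40, 1.88, 1.84 and 0.494 CPM in the Ezh2fl/null libraries, against 0.374, 0.786, 0.701 and 0.501 CPM in the Ezh2fl/+ libraries. Its log2 fold change was 1.22 (edgeR adjusted p = 0.0497), a call lost in 11 of 16 alternatives, with values from 0.70 to 1.5 and adjusted p from 0.00277 to 0.465. The arrestin gene Sag was at log2 0.88 (edgeR adjusted p = 0.164). Gnb1 and Reep6, at -0.05 and -0.02, did not pass and changed sign under some alternatives.

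Among 20 other regulators of photoreceptors, 4 rose, 1 fell and 15 did not pass, with a median of 0.00. Samd7, a Polycomb-linked repressor in rods, was at 1.87 ± 0.0766 CPM in Ezh2fl/null and 0.649 ± 0.183 CPM in Ezh2fl/+ (SD, n = 4 each), a rise of log2 1.5 (SE 0.23, edgeR adjusted p = 0.000432). With 0.421 to 0.835 CPM in the Ezh2fl/+ libraries, Samd7 passed the filter on low counts through its Ezh2fl/null libraries. Its call was in part fixed by the filter. Sall3, a zinc finger factor of cones and horizontal cells, rose by log2 0.72 (edgeR adjusted p = 4.57e-05). The nuclear receptor gene Esrrb rose by 0.51, which did not pass in 4 of 17 alternatives, and the proneural gene Neurod4, named after its values were seen, by 0.24. The lower member was Onecut1, which acts in early cone and horizontal cell genesis, which fell by 0.34 on the log2 scale and did not pass in 7 of 17 alternatives. With the male libraries alone, 2 were higher and 0 lower.

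Genes that act before Otx2 in the same sequence fell or did not pass. Among 13 Notch pathway, proneural and progenitor genes, 5 fell, 0 rose and 8 did not pass, with a median of -0.19. Atoh7, which opens the early-born fates, was at 40.5, 42.3, 48.5 and 59.0 CPM in the Ezh2fl/null libraries, against 69.3, 88.5, 86.0 and 87.4 CPM in the Ezh2fl/+ libraries. Ezh2fl/null replicate 4 was here the highest of its group, and no library overlapped. Atoh7 fell by 0.80 on the log2 scale (SE 0.11, edgeR adjusted p = 0.000124). Hes5, a Notch target, was at -0.41, Neurog2 at -0.29 and Rbpj, the Notch cofactor named after its values were seen, at -0.21. With sex as a covariate 3 of the 13 were called lower, and Neurog2, at -0.25, was no longer among them.

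Relatives of the 8 factors in their gene families were also counted. Among 13 paralogues tested, 5 rose, 1 fell and 7 did not pass, with a median of 0.21. Maf, of the leucine zipper family of Nrl, rose by log2 1.49, to 20.1 ± 1.01 CPM in Ezh2fl/null, against 7.21 ± 1.39 CPM in Ezh2fl/+ (SD, n = 4 each; edgeR adjusted p = 5.68e-07). Nr2e1, the progenitor relative of Nr2e3, fell by 0.41 (edgeR adjusted p = 0.000953), where Nr2e3 rose. Prdm8, a relative of Prdm1, rose by 0.65. Thra rose by 0.21, and the relatives of Rxrg, Rxra and Rxrb, were both at -0.06 and not called; these 3 were named after their values were seen. Of 6 genes that handle thyroid hormone, 2 were higher and 0 lower. Crym, which binds the hormone in the cytosol, rose by log2 1.61, to 117 ± 18.6 CPM in Ezh2fl/null, against 38.4 ± 1.96 CPM in Ezh2fl/+, and Dio3, which inactivates it, rose by 0.46 (SD, n = 4 each; edgeR adjusted p = 4.65e-08 and 0.00197). With the male libraries alone, 3 paralogues were called higher.

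**Figure D5:**
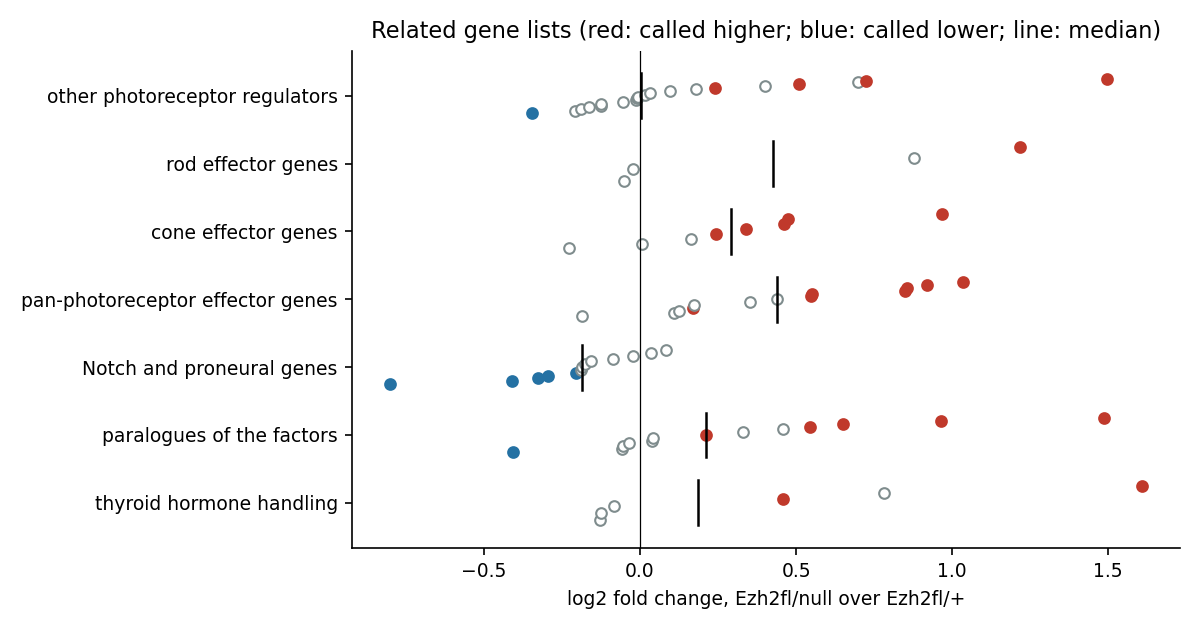
The log2 fold change (Ezh2fl/null over Ezh2fl/+) of every tested gene of 7 lists, with called genes filled in red where higher and blue where lower and the list median as a line. The cone and pan-photoreceptor effector lists lie mostly to the right of 0, with medians of 0.29 and 0.44, and the Notch and proneural list to the left, with a median of -0.19. The 4 rod effector genes tested lie on both sides of 0, with a median of 0.43.

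Markers of other cells in or near the retina were counted in both groups. Amacrine genes summed to 507 to 586 CPM in Ezh2fl/null and to 351 to 367 CPM in Ezh2fl/+, with 5 of 10 called higher. Bipolar genes summed to 233 to 250 CPM in Ezh2fl/null and to 234 to 255 CPM in Ezh2fl/+, with 2 of 8 higher and 1 lower. Most of this sum was Isl1, named after its values were seen, which is also in the ganglion cell list. Isl1 was the gene called lower, at means of 149 CPM in Ezh2fl/null and 167 CPM in Ezh2fl/+. Horizontal cell genes summed to 363 to 414 CPM in Ezh2fl/null and to 346 to 370.1 CPM in Ezh2fl/+, with 3 of 7 higher and 1 lower. Ganglion cell genes summed to 2280 to 2440 CPM in Ezh2fl/null and to 2380 to 2660 CPM in Ezh2fl/+, with 3 of 14 higher and 4 lower. Müller glia genes summed to 1180 to 1260 CPM in Ezh2fl/null and to 1170 to 1280 CPM in Ezh2fl/+, with 4 of 10 higher and 2 lower. Endothelial genes summed to 264 to 313 CPM in Ezh2fl/null and to 330 to 360 CPM in Ezh2fl/+, with no overlap and 1 of 4 higher and 1 lower. These sums were mostly a reading of 1 gene, Kdr, at means of 281 CPM in Ezh2fl/null and 332 CPM in Ezh2fl/+. Kdr was the gene called lower and Cldn5 the gene called higher. Pecam1 (0.60 CPM in Ezh2fl/null, 0.52 CPM in Ezh2fl/+) and Flt1 were not called. These genes were named after their values were seen. Mesenchyme genes summed to 40.1 to 94.1 CPM in Ezh2fl/null and to 38.9 to 69.5 CPM in Ezh2fl/+, with 3 of 8 higher and a median log2 fold change of 0.69. Among those higher were Twist1 and Foxc1, named after their values were seen, at means of 0.094 and 0.326 CPM in Ezh2fl/+. Both passed the filter on low counts through their Ezh2fl/null libraries. Microglial genes summed to 40.8 to 47.4 CPM in Ezh2fl/null and to 30.4 to 35.8 CPM in Ezh2fl/+, with 3 of 7 higher. The part of these cells in the levels of Otx2, Rorb, Rxrg and Thrb, which some of them also express, was not tested.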

How the data were processed

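Peripheral retina RNA was sequenced from 4 Ezh2fl/null and 4 Ezh2fl/+ libraries, with 13994825 to 18391647 counts each. The submitters' processing notes name Novoalign 2.08.01, the build mm10 and DESeq2, without their roles. The counter was not given in the sources used here. Counts were deposited raw, as whole numbers per gene. The authors' FPKM, their log2 ratio and an adjusted p score on an unnamed scale stand in the same table; the score was not used. The labels do not name the embryo behind a library. The Ezh2fl/null libraries hold both sexes and so come from more than a single embryo. Libraries of the same sex could still share an embryo, and the spread that p-values measure may in part be technical.

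Counts were tested with edgeR 4.0.16 in R 4.3.3 (TMM, filterByExpr with a minimum count of 10, quasi-likelihood test, Benjamini-Hochberg adjustment over 15014 genes, called under 0.05); 1082 genes were left out. The procedure was checked on simulated data. Ratios had 0.5 added to counts and were tested over libraries in scipy 1.17.1. Gene positions came from GENCODE M21 (15833 identifiers matched, 263 did not), and promoter windows from RefSeq. DESeq2 1.42.0 and other alternatives were tried. List genes named were up to 4 per list with the smallest p, and for likeness the 2 genes with the highest Pearson r. Some results of named genes are not reported here. The members and lists were chosen with earlier results of these data known.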

Additional observations from a re-analysis of the deposited data

Results flagged for a closer look

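In groups of 4 libraries, 4 values stood far from the others of their group, among 124 groups looked at, where chance gives about 1 in 20. Lens genes summed to 11.4 CPM in Ezh2fl/null replicate 2 and to 14.4 CPM in Ezh2fl/+ replicate 1. Atoh7 was at 69.3 CPM in Ezh2fl/+ replicate 1, below the other 3 Ezh2fl/+ libraries. Bipolar genes summed to 255 CPM in Ezh2fl/+ replicate 4, above the other 3. None of the 8 photoreceptor factors or their 6 ratios stood out in this way.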

How the results depend on the processing

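The calls of Otx2, Crx, Nrl, Nr2e3 and Rxrg held in all 17 alternatives, with log2 fold changes of 0.23 to 0.29, 0.28 to 0.32, 0.83 to 1.10, 2.82 to 3.89 and 0.30 to 0.38. Prdm1 (0.09 to 0.17) and Rorb (-0.15 to -0.10) passed in none. Thrb passed only when Ezh2fl/null replicate 4 was left out, with -0.17 to -0.10 when 1 library was left out, so that 0 to 1 factors were called lower. The genes called higher numbered 795 and the genes called lower 246 with sex as a covariate, and 800 and 255 with the male libraries alone. The genes called lower numbered 273 with total counts alone and 323 without the libraries with lens counts. Leaving out 1 library gave 1008 to 1233 higher (fewest without Ezh2fl/+ replicate 2) and 329 to 667 lower (fewest without Ezh2fl/+ replicate 3). The labels give both groups the numbers 1 to 4, but the numbers did not pair the libraries throughout: deviations from the group means correlated for numbers 1 and 4 (r = 0.226 and 0.256 over 10193 genes) and not for 2 and 3 (r = -0.0356 and -0.0262), and only 1 and 4 correlated best with their own number. With the replicate block 1179 genes were higher and 497 lower, the calls of the 8 factors stayed as they were, and the Ezh2 log2 fold change of 0.21 passed (edgeR adjusted p = 0.025). The Gnb1 log2 fold change turned to 0.031 with sex as a covariate, 0.030 with the male libraries alone and 0.013 without the libraries with lens counts. The Reep6 log2 fold change turned to 0.021 without those libraries, and ran from -0.085 to 0.048 when 1 library was left out. The 6 ratios kept their direction. Depth limits Nr2e3, with 0 to 71 counts a library, and the rod effector genes Pde6g, Sag and Reep6, which averaged under 2 CPM in each group.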
